A study of Mus musculus with 3 samples.

Results

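The genes described are 35 named genes of glycolysis and of the response to low oxygen, listed by symbol and measured in MC3T3-E1 cells, an established clonal line of mouse preosteoblasts derived from skull bone. A gene was measured through probe sets whose only gene symbol is its own, and its level is that of the probe set with the highest mean log2 signal over the arrays. Of the 35 genes, 32 had such a probe set, and 28 lay above the floor of 3.54 on all 3 arrays. Among all 18194 genes represented in the same way, 11204 lay above it on all 3 arrays. The floor is the median log2 signal of all probe sets, and lower values were raised to it. Aldoc, Slc16a3, Adm and Epas1 were below the floor on every array, at raw log2 signals of 2.85, 2.13 to 2.21, 2.60 to 2.85 and 2.67. Gpi1, Eno1 and Bnip3l had no probe set of a single symbol and were not analysed here.

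Cells were kept for 3 days at 37 °C in 1 of 3 media, with 1 array for each and no replicate. The media were osteogenic medium with 0.6% dimethyl sulfoxide (DMSO), osteogenic medium without DMSO, and normal medium. All of them were MEM α with 10% fetal bovine serum, and both osteogenic media also contained 150 µM ascorbic acid 2-phosphate, a stable vitamin C, and 10 mM beta-glycerophosphate, a phosphate donor. Per the labels, mineral staining was stronger with 0.6% DMSO. Total RNA was read on Affymetrix Mouse Genome 430 2.0 arrays, and a single array per medium means that no test, p-value or error between cultures can be given. Cultures rather than cells were measured, so fewer cells of a type and less RNA per cell cannot be told apart.

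Glycolysis converts glucose to pyruvate in the cytosol, and lactate dehydrogenase converts pyruvate to lactate. Osteoblasts are known to take up much glucose and to release lactate. When oxygen is short, the prolyl hydroxylases of the Egln family no longer mark the HIF alpha subunits for breakdown, and HIF raises most glycolytic genes together with genes of mitochondrial clearance and collagen hydroxylation. The Egln enzymes and the collagen prolyl 4-hydroxylases belong to a class of enzymes that need iron and ascorbate. HIF binds promoters at a core that reads ACGTG or GCGTG.

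To show where such letters lie, promoter windows of 250 bases before to 50 bases after each RefSeq gene start (build GRCm38.p6) were searched on both strands. Windows were found for 31 of the 35 genes, 46 windows in all, since some genes have several starts and some windows overlap. ACGTG was present in 26 of the 46 windows (56.5%), against 19.6% of all 32851 windows. By gene it was present for 22 of 31 (71.0%), against 21.8% of all 27025 genes. The windows of these genes were richer in G and C, with a median of 63.2% against 52.7% for all windows. Among windows of at least 60% G and C, ACGTG was present in 21 of 27 (77.8%), against 26.5% of all such windows. GCGTG was present in 25 of 46 windows (54.3%), against 32.4% of all windows, and in the windows of at least 60% G and C its shares were 59.3% and 59.2%. CACGTG, a palindrome that also contains ACGTG on both strands and was counted there on each, was present in 5 of 46 windows (10.9%), against 7.15% of all. The genes were listed as hypoxia-responsive, so the share with these letters describes the list and is no finding of the arrays, and a match is not evidence of binding.

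The windows of 5 genes are printed 5′ to 3′ on the gene's strand, with ACGTG or its complement CACGT in capitals. Ldha (chr7:46845554-46845853, plus strand) is shown because it had the most matches, 5. Pgk1 (chrX:106186850-106187149, plus strand) and P4ha2 (chr11:54100674-54100973, plus strand) had 2 each and were higher in both osteogenic media. Eno2 (chr6:124769624-124769923, minus strand) had the largest difference of any of these genes, with DMSO against osteogenic medium, and holds neither ACGTG nor GCGTG in this window. Pfkp (chr13:6648722-6649021, minus strand) was lower in both osteogenic media and holds no ACGTG but 4 matches to GCGTG.
Ldha: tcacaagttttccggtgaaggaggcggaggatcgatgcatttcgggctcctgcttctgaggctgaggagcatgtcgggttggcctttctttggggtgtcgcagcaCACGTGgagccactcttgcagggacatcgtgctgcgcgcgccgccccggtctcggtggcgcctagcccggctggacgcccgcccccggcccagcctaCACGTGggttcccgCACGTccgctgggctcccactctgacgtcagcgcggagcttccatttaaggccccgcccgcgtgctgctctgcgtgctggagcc
Pgk1: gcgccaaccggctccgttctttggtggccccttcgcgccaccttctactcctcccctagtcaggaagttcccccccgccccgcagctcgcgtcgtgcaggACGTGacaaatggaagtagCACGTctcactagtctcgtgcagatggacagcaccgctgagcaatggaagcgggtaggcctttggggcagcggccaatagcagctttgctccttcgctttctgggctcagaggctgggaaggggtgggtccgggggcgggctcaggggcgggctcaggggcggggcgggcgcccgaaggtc
P4ha2: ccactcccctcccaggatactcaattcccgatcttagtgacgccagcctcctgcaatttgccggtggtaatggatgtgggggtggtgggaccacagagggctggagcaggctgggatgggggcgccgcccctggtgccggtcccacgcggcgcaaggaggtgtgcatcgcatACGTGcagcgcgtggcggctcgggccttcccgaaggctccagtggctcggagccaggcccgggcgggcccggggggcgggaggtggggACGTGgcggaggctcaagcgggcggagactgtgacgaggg
Eno2: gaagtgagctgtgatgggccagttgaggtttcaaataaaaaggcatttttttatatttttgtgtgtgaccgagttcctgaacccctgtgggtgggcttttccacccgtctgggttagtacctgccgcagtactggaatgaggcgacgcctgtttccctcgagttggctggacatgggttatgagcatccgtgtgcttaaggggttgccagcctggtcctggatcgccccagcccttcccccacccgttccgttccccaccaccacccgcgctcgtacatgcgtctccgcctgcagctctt
Pfkp: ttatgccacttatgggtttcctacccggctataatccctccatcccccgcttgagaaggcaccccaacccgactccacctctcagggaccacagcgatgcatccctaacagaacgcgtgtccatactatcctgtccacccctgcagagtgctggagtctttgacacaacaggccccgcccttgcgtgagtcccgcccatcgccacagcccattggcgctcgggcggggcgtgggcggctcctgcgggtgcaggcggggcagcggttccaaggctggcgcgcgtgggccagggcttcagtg

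None of the 28 measured genes differed 2-fold (1 on the log2 scale) in any comparison, and the shares of all genes that did were too small for that count to set these genes apart. Among all 11418 genes measured, 0.657% did so between osteogenic and normal medium, 0.473% higher and 0.184% lower. Between osteogenic medium with and without DMSO, 0.604% of 11424 genes did so, 0.0525% higher and 0.551% lower. Between osteogenic medium with DMSO and normal medium, 1.94% of 11423 genes did so. The median log2 difference of the 28 genes was -0.0025 for osteogenic minus normal medium, 0.015 for osteogenic medium with DMSO minus osteogenic medium, and 0.032 for osteogenic medium with DMSO minus normal medium, beside medians of 0 over all genes measured. The 3 comparisons share arrays, so they are not independent of each other. The SD of the log2 difference across the 28 genes was 0.21, 0.23 and 0.22, and over all genes 0.24, 0.21 and 0.33.

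At a smaller step of 0.5 on the log2 scale (1.41-fold), 2 of the 28 genes were higher in osteogenic than in normal medium and 0 were lower, against 4.93% of all genes past this step, 2.57% higher and 2.36% lower. With DMSO, 0 were higher and 1 was lower than in osteogenic medium, against 3.31% of all genes, 0.499% higher and 2.81% lower. Neither direction had a gene at this step between osteogenic medium with DMSO and normal medium, where 9.09% of all genes were past it, 3.52% higher and 5.57% lower. At a step of 0.25 (1.19-fold), 7 of 28 were higher in osteogenic than in normal medium, against 8.97% of all genes, and 1 was lower, against 9.09%, or 18.1% in either direction. With the mean of all probe sets the higher genes numbered 4 of 26, and with the second brightest probe set 3 of 17. The higher genes on the brightest probe set were Eno2, Slc2a3, Pkm, Pfkl, Ankrd37, P4ha2 and Pgk1, and the lower one was Pfkp. With DMSO, 2 were higher and 3 lower than in osteogenic medium, against 4.46% and 7.35% of all genes, or 11.8% in either direction. The higher ones were Pfkfb3 and Mxi1, and the lower ones Eno2, Slc2a3 and Ankrd37. Against normal medium, osteogenic medium with DMSO had 5 higher and 3 lower genes at this step, beside 11.3% and 12.9% of all genes, or 24.2% in either direction. The higher ones were Pfkl, Pgk1, Pfkfb3, P4ha2 and Pkm, and the lower ones Pfkp, Eno2 and Ndrg1. The spread that can be measured within an array pair is that between probe sets of a gene. It was taken over 5182 genes as the SD of the difference between the changes of the 2 brightest probe sets. This SD was 0.18 for osteogenic minus normal medium and 0.22 for osteogenic medium with DMSO minus normal medium. For osteogenic medium with DMSO minus osteogenic medium it was 0.15. Both probe sets read the same RNA, so this spread does not measure variation between cultures.

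**Figure D1:**
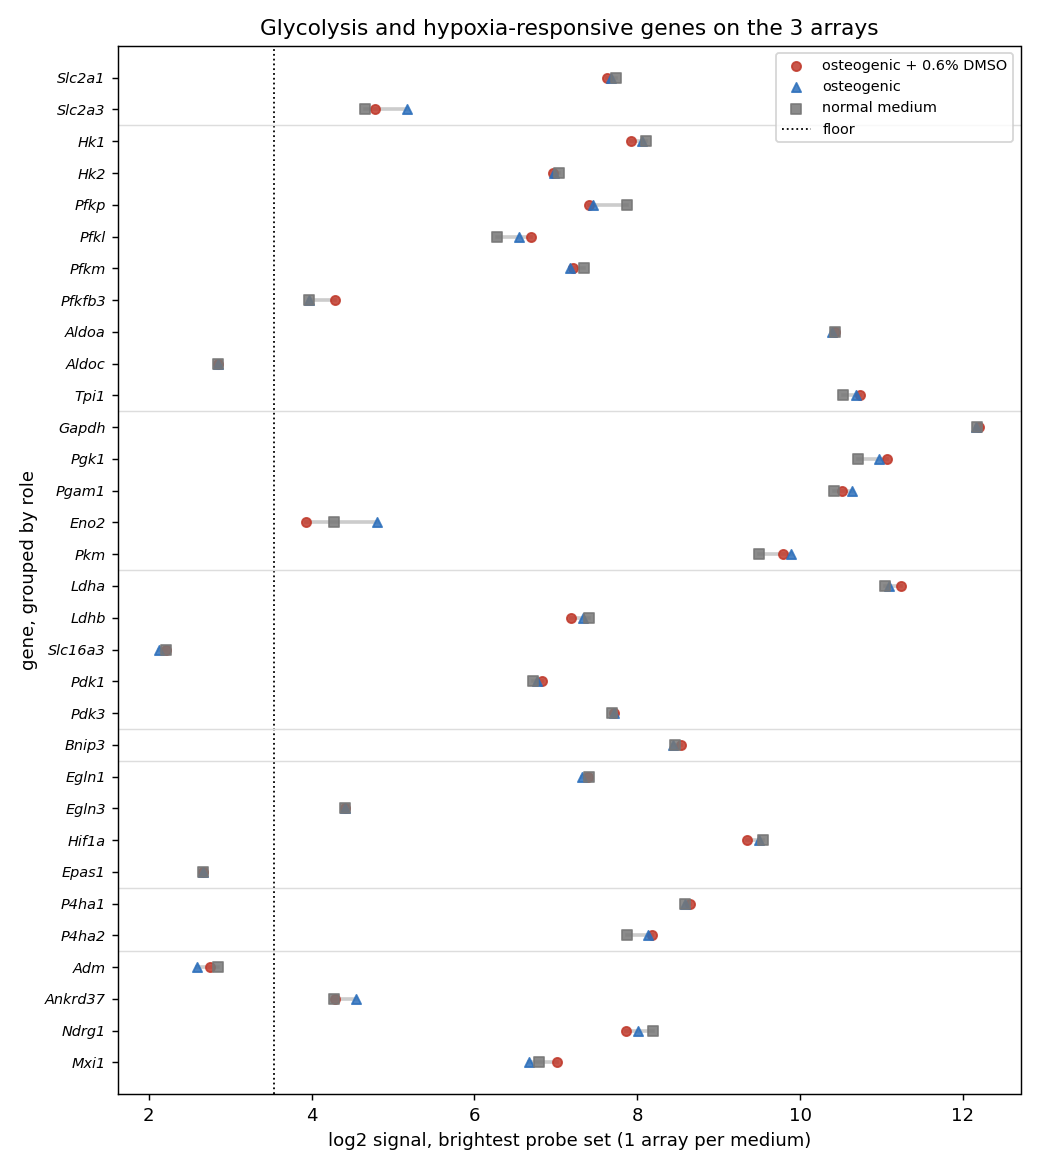
Log2 signal (x axis) of the brightest probe set of each of the 32 genes with a probe set, in rows grouped by role, with red circles for osteogenic medium with DMSO, blue triangles for osteogenic medium and grey squares for normal medium, 1 array each. The dotted line is the floor of 3.54, left of which lie Aldoc, Slc16a3, Epas1 and Adm. The 3 marks lie close together for most genes, and Eno2 has the widest range, 3.93 to 4.81.

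The genes were measured in cells that carried osteoblast markers. All 6 osteoblast markers with a probe set (Sp7, Alpl, Col1a1, Col1a2, Ibsp and Sparc) were above the floor on all arrays. Runx2, also listed, had no probe set of a single symbol. Alpl, the alkaline phosphatase of mineralising cells, read 9.02 with DMSO, 8.31 in osteogenic medium and 6.61 in normal medium. A level above the floor marks no cell type by itself, since 11204 of all 18194 genes were above it on all arrays. Of 4 endothelial markers only Kdr was above it, on 1 array, and the 3 adipocyte markers measured were below it on all. Of 6 macrophage markers, Ptprc (a marker of all leukocytes), Adgre1 and Cd68 were below the floor, and Lyz2, Csf1r and Cd14 lay above it, at 4.41 to 5.96. Myod1 and Myog, which define muscle cells, were below the floor, and Acta1 and Ckm lay above it. Of 4 epithelial markers, Epcam, Krt8 and Cdh1 were above the floor, at 3.55 to 4.87. The arrays had medians of 3.54, 3.58 and 3.54 in osteogenic medium with DMSO, osteogenic medium and normal medium. The 18 spike-in control probe sets had a median difference of 0.10 for osteogenic minus normal medium, with a range of 0 to 0.29 and none below 0, and a median of -0.03 for DMSO. That range reaches the differences of Pgk1, P4ha2, Ankrd37 and Pfkl between osteogenic and normal medium, and smaller ones such as those of Pgam1 and Tpi1. For osteogenic medium with DMSO minus normal medium the spike-in median was 0.06, with a range of 0.01 to 0.18. This second range reaches the difference of 0.11 for Pgam1. The part of the spike-in offsets in these differences was not tested.

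Glucose enters the cell through the Slc2a transporters. Slc2a1, the widespread glucose transporter GLUT1, had log2 signals of 7.63 in osteogenic medium with DMSO, 7.67 in osteogenic medium and 7.74 in normal medium. Its other probe sets, at 7.31 and 6.45, had equal values on all arrays. Slc2a3, the high-affinity transporter GLUT3, was at 4.78 with DMSO, 5.17 in osteogenic medium and 4.66 in normal medium. It was thus highest in osteogenic medium without DMSO, by 0.51 over normal medium, and differed by -0.39 with DMSO. Its second probe set was under the floor in normal medium, at a raw 3.38, and read 4.06 in osteogenic medium and 3.77 with DMSO. Both probe sets were highest in osteogenic medium without DMSO. The other 2 probe sets of Slc2a3 were below the floor.

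The hexokinases phosphorylate glucose and so trap it, and their brightest probe sets differed between media by less than the probe set spread. Hk1 was at 7.93 with DMSO, 8.06 in osteogenic medium and 8.10 in normal medium, and its second probe set differed by -0.25 for osteogenic medium with DMSO minus normal medium. Hk2, the hexokinase that HIF is known to raise, stood at 6.96, 6.98 and 7.04 in the same order of media.

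The phosphofructokinases, which carry out the committed step of glycolysis, went in different directions. Pfkl, named for its liver form, was at 6.69 in osteogenic medium with DMSO, 6.55 in osteogenic medium and 6.27 in normal medium. Its difference from normal medium was 0.42 with DMSO, a factor of 1.34, and 0.28 without it, and the second probe set gave 0.28 and 0.07. Pfkp, named for its platelet form, was at 7.41 with DMSO, 7.46 in osteogenic medium and 7.87 in normal medium. It was lower than in normal medium by -0.46 with DMSO, a factor of 1.37, and by -0.41 without, and its second probe set gave -0.46 and -0.22. Pfkm, named for its muscle form, had -0.14 and -0.17 for the same comparisons. Only Pfkl of the 3 was higher in the osteogenic media, on both of its probe sets above the floor. Pfkfb3, which makes the fructose 2,6-bisphosphate that activates phosphofructokinase, was near the floor, at 4.29 with DMSO and 3.97 in both other media.

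Further along, aldolase splits the sugar and triosephosphate isomerase interconverts the products. Aldoa was at 10.44 with DMSO, 10.40 in osteogenic medium and 10.44 in normal medium, and its 5 probe sets ranged from -0.19 to 0 for osteogenic minus normal medium. Tpi1 was at 10.73 with DMSO, 10.68 in osteogenic medium and 10.53 in normal medium. Its second probe set differed by 0.37 for osteogenic medium with DMSO minus normal medium and the third had equal values on all arrays. Genes such as Aldoa, Tpi1, Pgk1, Ldha and Gapdh are known to have processed pseudogenes, so their probe sets may also read near-identical copies.

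Lower glycolysis yields ATP, and 5 of its genes were measured. For osteogenic minus normal medium, 4 were above 0 and 1 below, with a median of 0.25, beside 36.5% of all genes above 0, 38.7% below and 24.9% equal. For osteogenic medium with DMSO minus normal medium, 4 were above 0 and 1 below, with a median of 0.11. Of all genes, 40.7% were above 0 in that comparison, 35.8% below and 23.5% equal. The gene below 0 was Gapdh at -0.01 without DMSO and Eno2 at -0.34 with it. Gapdh was nearly level, at 0.03 with DMSO. Pgk1, phosphoglycerate kinase, was at 11.07 with DMSO, 10.97 in osteogenic medium and 10.72 in normal medium. All 3 of its probe sets were higher than in normal medium, by 0.17 to 0.35 with DMSO and by 0.17 to 0.27 without. Pgam1, phosphoglycerate mutase, was at 10.52 with DMSO, 10.64 in osteogenic medium and 10.42 in normal medium. Pkm, pyruvate kinase, was at 9.79 with DMSO, 9.88 in osteogenic medium and 9.50 in normal medium, a difference of 0.29 with DMSO and 0.39 without from normal medium. These 3 genes were thus higher in both osteogenic media than in normal medium. For Pgam1 the difference was 0.22 without DMSO and 0.11 with it, the latter within the probe set spread of 0.22. Only Pgk1 was higher with DMSO than without, by 0.10 on its brightest probe set, within the spread of 0.15. Its other probe sets were nearly level with DMSO, at 0.001 and 0.002. The spliced forms of Pkm were not analysed here.

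Gapdh, the dehydrogenase between these steps and a common reference gene, was read only by 3 array control probe sets. The one with the highest mean was at 12.20 with DMSO, 12.16 in osteogenic medium and 12.17 in normal medium. Over the 3 probe sets, the differences were -0.01 to 0.01 for osteogenic minus normal medium and 0.01 to 0.04 for osteogenic medium with DMSO minus normal medium, so the gene was nearly level. Its 3′ minus 5′ signal, a measure of RNA integrity, was -0.06, -0.04 and -0.04 in the order of media above, and that of Actb was 0.18, 0.20 and 0.27.

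Eno2, the enolase known from neurons and a HIF target, had the largest difference of the 28 genes between osteogenic and normal medium and between osteogenic medium with and without DMSO. Its log2 signal was 3.93 in osteogenic medium with DMSO, 4.81 in osteogenic medium and 4.27 in normal medium. It was higher by 0.54 in osteogenic than in normal medium, a factor of 1.45, and differed by -0.88 with DMSO, a factor of 1.83. The level with DMSO was thus the lowest of the 3. Eno2 has a single probe set near the floor, and with a higher floor of 4.48, the 60th percentile, the differences were 0.33 and -0.33. The epithelial marker Cdh1, also dim, had the same order of media, at 3.55 with DMSO, 4.87 in osteogenic medium and 3.87 in normal medium. The other epithelial markers did not share it. Epcam was at 4.41 with DMSO, 4.48 in osteogenic medium and 4.53 in normal medium, and Krt8 and Krt18 had equal values on all arrays. The part of epithelial cells in the Eno2 result was not tested. Among all genes with a mean log2 signal between the floor and 5.5, 4.24% of 2948 differed by at least 0.5 in either direction with DMSO and 5.59% of 2935 between osteogenic and normal medium. Eno3, the muscle enolase, was not among the 35 genes and was also lowest with DMSO, at 6.64 with DMSO, 7.54 in osteogenic medium and 7.40 in normal medium. Its difference with DMSO was -0.90 on 1 probe set well above the floor.

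**Figure D2:**
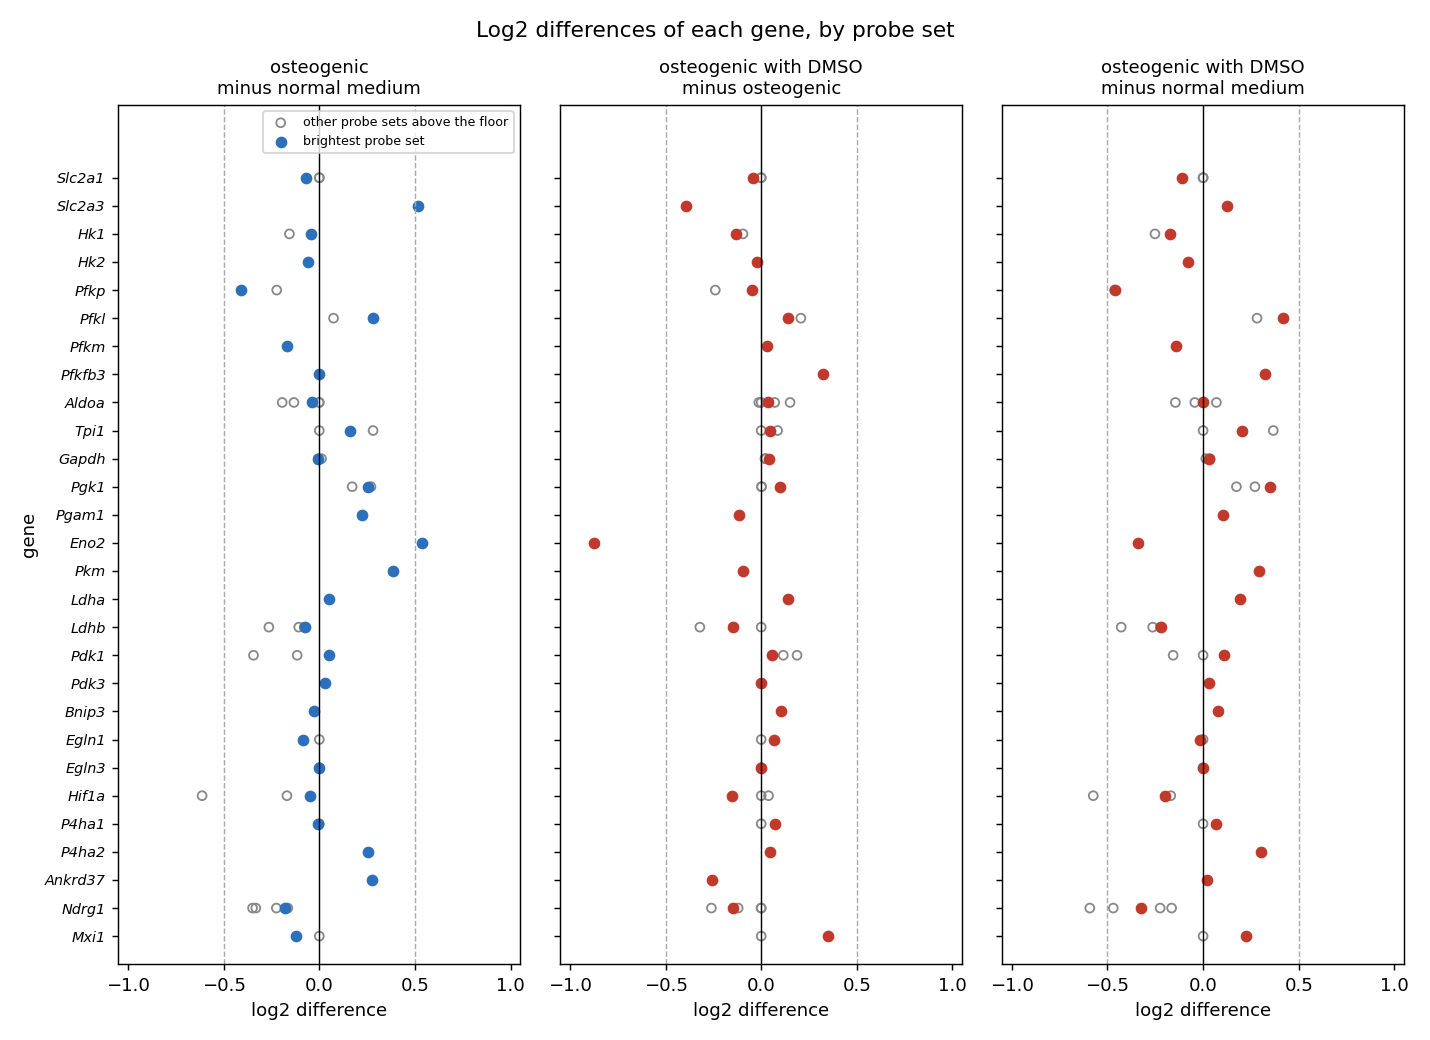
Log2 differences (x axis) of the 28 measured genes (rows), 1 panel per comparison, with filled points for the brightest probe set and open points for the other probe sets above the floor on all arrays. Dashed lines mark 0.5 in each direction. Eno2 lies at -0.88 in the middle panel, and Pfkp at -0.46 and Pfkl at 0.42 on opposite sides of 0 in the right panel.

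The lactate dehydrogenases differed little on their brightest probe sets. Ldha, which favours lactate formation, was at 11.24 in osteogenic medium with DMSO, 11.10 in osteogenic medium and 11.04 in normal medium, from 1 probe set. Ldhb, which favours the return to pyruvate, was at 7.18 with DMSO, 7.33 in osteogenic medium and 7.40 in normal medium. All 4 probe sets of Ldhb were lower than in normal medium, by -0.22 to -0.43 with DMSO and by -0.07 to -0.26 without. On the brightest probe sets, the differences of 0.19 for Ldha and -0.22 for Ldhb between osteogenic medium with DMSO and normal medium were both within the probe set spread of 0.22.

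Pyruvate dehydrogenase kinases inhibit pyruvate dehydrogenase and so hold pyruvate back from oxidation in the mitochondria. Pdk1, a HIF target, was at 6.83 with DMSO, 6.77 in osteogenic medium and 6.72 in normal medium, while its other probe sets above the floor gave -0.12 and -0.34 for osteogenic minus normal medium, so no direction can be given. With DMSO against osteogenic medium, all 3 were higher, by 0.06 to 0.19. Pdk3 was at 7.72 in both osteogenic media and 7.69 in normal medium. Pdk4, which was outside the 35 genes and is known to respond to fatty acids and glucocorticoids, stood apart from them at 6.46 with DMSO, 7.27 in osteogenic medium and 7.48 in normal medium. Its difference of -1.02 between osteogenic medium with DMSO and normal medium, a factor of 2.03, was a 2-fold fall on its only probe set.

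**Figure D3:**
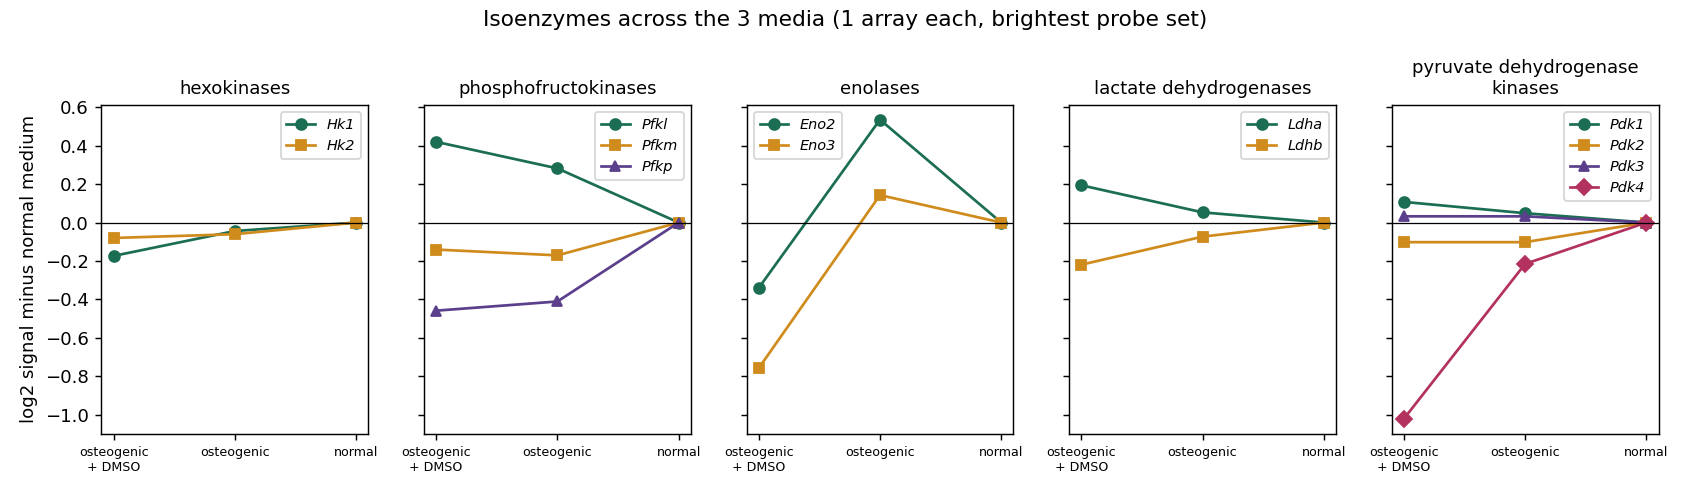
Log2 signal minus that in normal medium (y axis) for isoenzymes of 5 enzymes of glycolysis and of lactate and pyruvate handling. The x axis gives osteogenic medium with DMSO, osteogenic medium and normal medium, 1 array each, brightest probe set. Pfkl and Pfkp part in opposite directions, Ldha and Ldhb lie at 0.19 and -0.22 with DMSO, Eno2 and Eno3 are lowest with DMSO, and Pdk4 lies at -1.02 there.

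Among the oxygen sensing genes, Hif1a was lower than in normal medium on every probe set above the floor. On its brightest probe set the differences from normal medium were within the probe set spread. Egln1 and Egln3 also differed by less than the spread. Hif1a, the oxygen-regulated HIF subunit that is controlled mainly at the protein level, was at 9.34 with DMSO, 9.50 in osteogenic medium and 9.55 in normal medium. Its 3 probe sets above the floor were all below normal medium, by -0.17 to -0.57 with DMSO and by -0.05 to -0.61 without, and they disagree on the size. The mean over all 4 of its probe sets, including a probe set below the floor, was -0.29 for osteogenic minus normal medium. Egln1, the main hydroxylase that marks HIF for breakdown, was at 7.39 with DMSO, 7.32 in osteogenic medium and 7.41 in normal medium. Egln3, a hydroxylase that HIF itself raises, read 4.41 on all 3 arrays, and its second probe set was also equal. It was the single measured gene with equal values throughout. Epas1, which encodes HIF2 alpha, was below the floor.

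Bnip3, a HIF target that marks mitochondria for clearance, was at 8.54 with DMSO, 8.44 in osteogenic medium and 8.47 in normal medium. The differences of 0.10 and -0.03 for DMSO against osteogenic medium and for osteogenic against normal medium lie within the probe set spread.

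P4ha1 and P4ha2 encode the catalytic subunits of the collagen prolyl 4-hydroxylases, which need ascorbate and stabilise the collagen helix. P4ha2 was at 8.18 in osteogenic medium with DMSO, 8.13 in osteogenic medium and 7.88 in normal medium, on 1 probe set. Its difference from normal medium was 0.30 with DMSO and 0.26 without. P4ha1 was at 8.65 with DMSO, 8.58 in osteogenic medium and 8.59 in normal medium, and its second probe set had equal values on all arrays. Of the pair, P4ha2 alone was past 0.25 against normal medium, and the difference between the genes was not tested.

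The remaining hypoxia-responsive genes went different ways. Ndrg1, a gene of differentiation and stress that hypoxia raises, was at 7.86 with DMSO, 8.01 in osteogenic medium and 8.19 in normal medium. All 5 of its probe sets were below normal medium, by -0.16 to -0.59 with DMSO and by -0.16 to -0.35 without. Mxi1, a MAX partner that opposes MYC, was at 7.02 with DMSO, 6.67 in osteogenic medium and 6.79 in normal medium, while its second probe set had equal values on all arrays. Ankrd37, an ankyrin repeat gene strongly raised by HIF in other cells, was near the floor at 4.29 with DMSO, 4.55 in osteogenic medium and 4.27 in normal medium. Like Eno2 and Slc2a3, it was highest in osteogenic medium without DMSO, as were the brighter Pkm and Pgam1. Adm, the peptide adrenomedullin, was below the floor.

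Probe sets of a gene are repeated readings of the same RNA on an array, and are no replicates of a medium. Of the 28 genes, 16 had at least 2 probe sets above the floor. For osteogenic minus normal medium, 3 had probe sets at or above 0, 10 at or below 0, 2 on both sides and 1 all equal. For osteogenic medium with DMSO minus osteogenic medium the counts were 8, 5, 2 and 1. For osteogenic medium with DMSO minus normal medium they were 6, 7, 2 and 1. The same counts over all genes were not made, so these give no direction for the 16 genes. Some rest on a very small difference beside an equal value, such as P4ha1 at -0.005 and 0 for osteogenic minus normal medium. Against normal medium, with and without DMSO, every probe set above the floor went the same way for Pgk1 and Pfkl upward and Hk1, Pfkp, Ldhb, Hif1a and Ndrg1 downward. Of the genes past 0.25 between osteogenic and normal medium, Pgk1, Pkm, P4ha2 and Ankrd37, all higher, had ACGTG in a promoter window, while Pfkl and Eno2, also higher, and Pfkp, lower, had none there. Slc2a3 had no window. These few genes allow no comparison of directions by promoter letters.

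**Figure D4:**
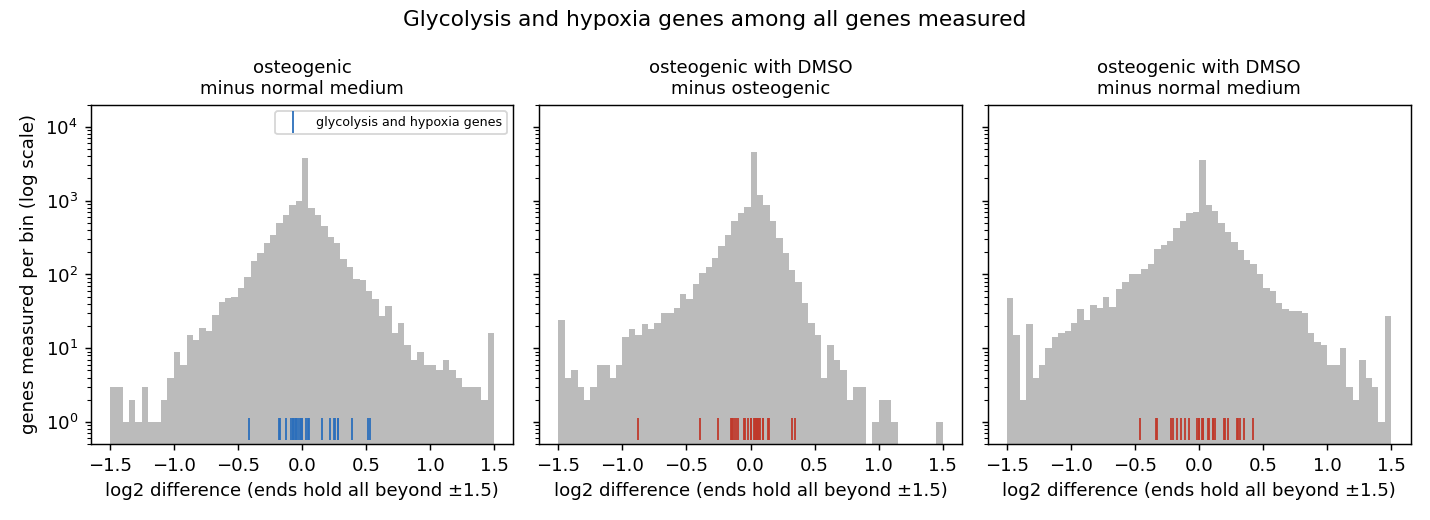
Number of genes measured (y axis, log scale) by log2 difference (x axis) for each comparison, in grey, with values beyond 1.5 gathered in the end bins. Coloured ticks at the base are the 28 glycolysis and hypoxia genes, which lie inside 1 in each panel, with Eno2 at -0.88 as the lowest tick of the middle panel.

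Other genes of the same pathways were taken from lists of related function. Of 22 other glycolysis and glucose genes measured between osteogenic and normal medium, none differed 2-fold, beside 0.657% of all genes. By at least 0.5, 1 was higher and 1 lower, beside 2.57% and 2.36% of all genes, and the median was 0.026. With DMSO against normal medium, 2 of 21 were higher and 2 lower at this step, beside 3.52% and 5.57%, and against osteogenic medium 0 were higher and 1, Eno3, was lower. The higher one in osteogenic medium was Bpgm, which makes the bisphosphoglycerate of red cells, at 5.71 in both osteogenic media and 5.09 in normal medium, with other probe sets at 0.16 and 0.32. The lower one was Pck2, the mitochondrial phosphoenolpyruvate carboxykinase, at 8.78 with DMSO, 8.95 in osteogenic medium and 9.69 in normal medium. Its second probe set was lower than in normal medium by -1.15 with DMSO and -1.26 without. Pgp, a phosphatase that clears side products of glycolysis, was at 9.14 with DMSO, 8.92 in osteogenic medium and 8.49 in normal medium, and its second probe set gave 0.42 and 0.26 against normal medium.

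Of 17 pyruvate and lactate handling genes measured, 1 rose and 1 fell 2-fold in osteogenic medium with DMSO against normal medium, where 0.604% of all genes rose and 1.34% fell. The riser was Me2, the mitochondrial malic enzyme that makes pyruvate from malate. It was at 7.42 with DMSO, 6.62 in osteogenic medium and 5.78 in normal medium, 3.12-fold higher with DMSO than in normal medium. Its difference was 0.84 for osteogenic minus normal medium and 0.80 for osteogenic medium with DMSO minus osteogenic medium. The other probe sets above the floor gave 0.89 and 0.65 for the first comparison and 0.25 and 0.43 for the second. The gene that fell was Pdk4. Got1, an aspartate aminotransferase of the malate-aspartate shuttle, differed by -0.55 between osteogenic medium with DMSO and normal medium. The median of the list was 0.

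The 14 HIF regulators had medians of -0.03, 0.02 and 0 for osteogenic minus normal medium, for DMSO and for osteogenic medium with DMSO minus normal medium, and none differed 2-fold. Arnt2, a HIF partner of neurons, was low at 4.19 with DMSO, 4.65 in osteogenic medium and 4.81 in normal medium. Rbx1, a subunit of the ligase that removes HIF, was at 4.09 with DMSO, 3.77 in osteogenic medium and 3.56 in normal medium, close to the floor on its single probe set. Vhl, the receptor subunit of that ligase, differed by 0.07 between osteogenic and normal medium.

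Of 34 other hypoxia targets measured, none differed 2-fold. By at least 0.5, 3 were higher and 0 lower in osteogenic than in normal medium, beside 2.57% and 2.36% of all genes. With DMSO against osteogenic medium, 0 were higher and 1 lower, beside 0.499% and 2.81%, and against normal medium 4 were higher and 0 lower, beside 3.52% and 5.57%. Their medians were 0.029 for osteogenic minus normal medium and 0 for both other comparisons. Bhlhe40, a circadian and hypoxia repressor, was at 8.29 with DMSO, 8.44 in osteogenic medium and 7.75 in normal medium. Jmjd6, an iron-dependent oxygenase, was at 6.55 with DMSO, 6.75 in osteogenic medium and 6.08 in normal medium, and its second probe set was higher than in normal medium by 0.39 without DMSO and 0.17 with it. Angptl4, a lipase inhibitor raised by hypoxia and by PPAR factors, was near the floor at 4.54 with DMSO, 4.50 in osteogenic medium and 3.90 in normal medium. Nrn1, a neurite-promoting protein, differed by -0.64 with DMSO. Vegfa, the angiogenic factor that HIF raises, was at 5.98 with DMSO, 6.24 in osteogenic medium and 6.30 in normal medium.

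The pentose phosphate pathway, which branches off after hexokinase, had 8 genes measured. Its median was 0.13 for osteogenic minus normal medium, 0 for DMSO and 0.12 for osteogenic medium with DMSO minus normal medium. In both comparisons with normal medium, 5 of 8 were above 0, 1 below and 2 equal. Of all genes, 36.5% were above 0, 38.7% below and 24.9% equal for osteogenic minus normal medium. With DMSO against normal medium these shares were 40.7%, 35.8% and 23.5%. The spike-in medians of these comparisons were 0.10 and 0.06, and their part in the medians of this list was not tested. Taldo1 (transaldolase) and Pgd (phosphogluconate dehydrogenase) differed by 0.43 and 0.38 for osteogenic medium with DMSO minus normal medium. None reached 0.5.

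**Figure D5:**
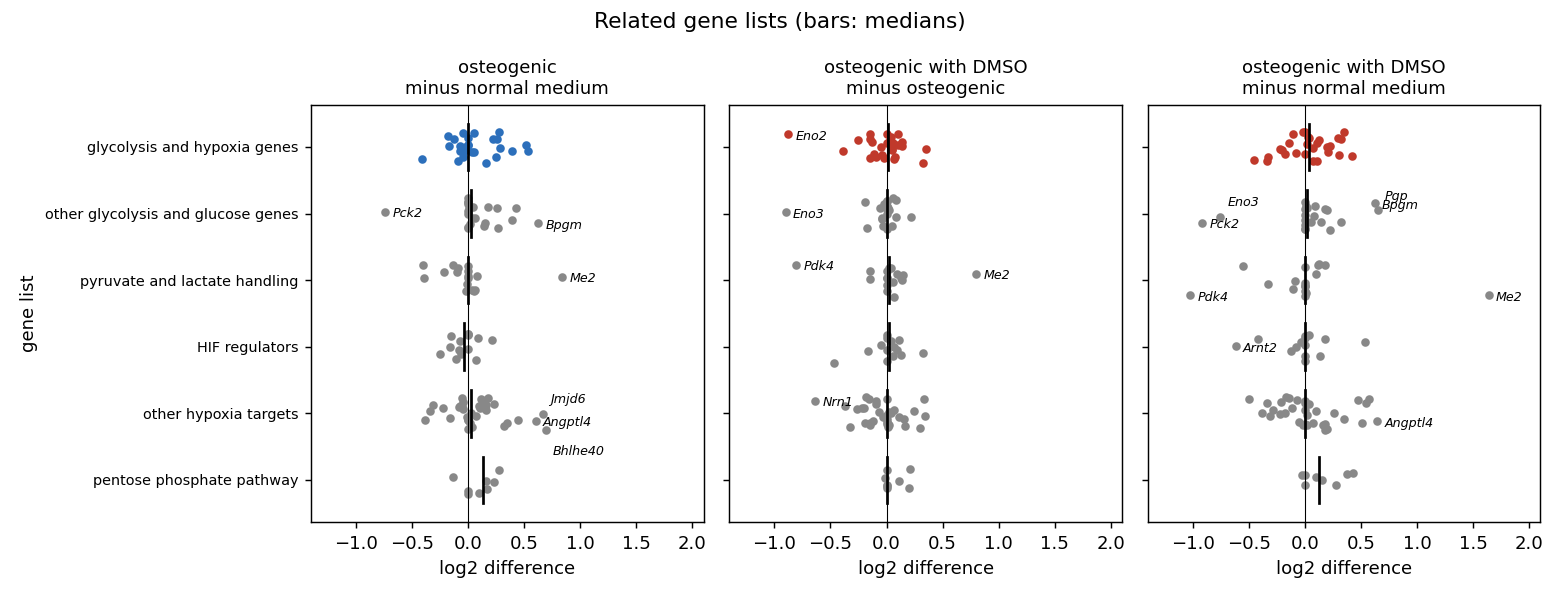
Log2 difference (x axis) of each measured gene of the 28 and of 5 related lists (rows), 1 panel per comparison, with black bars for medians and names for differences of at least 0.6. The medians lie close to 0 in every row, while Me2 reaches 1.64 and Pdk4 -1.02 in the right panel.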

How the data were processed

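The authors deposited 1 value per probe set and array on a log2 scale, as read from its range of 0.652 to 13.4. How they summarised and normalized the probes is not given in the sources here. The array quartiles were nearly equal, so a difference in RNA content per cell would not show. Of 45101 probe sets, 37.4% had equal values on all arrays, which gives differences of exactly 0. In the platform annotation of 2016, 34958 probe sets had 1 gene symbol, 932 several and 9211 were not named here, and array control probe sets with 1 symbol were kept, which adds Gapdh.

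Here, each gene took its probe set with the highest mean, values were raised to the floor, and log2 differences were computed over genes above it on at least 1 of the arrays compared. A fall or rise means a difference of at least 1. With 1 array per medium there is no test. The genes and lists were chosen with earlier results of these data known. All 35 genes are named, with up to 4 genes of each related list that differed by at least 0.5 and were above the floor on both arrays. Vegfa, Vhl, Taldo1 and Pgd were added after their values were seen, as were the step of 0.25 and the bands of signal. Counting was tested on simulated data. Python 3.11.15, numpy 2.4.6, pandas 2.3.3, matplotlib 3.10.9, R 4.3.3 and limma 3.58.1 were used. RNA with an integrity number over 9.5 was used, per the labels. Alternatives covered scaling, choice of probe set, floor and equal values.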

Additional observations from a re-analysis of the deposited data

How the results depend on the processing

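The counts past 2-fold were 0 under every alternative run, and the medians of the 28 genes moved by less than the probe set SD divided by the square root of the number of genes, under all of them. Median centring, quantile normalization, cyclic loess, no floor and leaving out control probe sets moved no count of these genes by over 1.5 times. With the floor at the 60th percentile, the genes higher by 0.5 in osteogenic than in normal medium numbered 1 in place of 2, those lower by 0.5 with DMSO 0 in place of 1, and those higher by 0.25 with DMSO 1 in place of 2, since Eno2 and Pfkfb3 have values below that floor. With the mean of all probe sets, the genes higher in osteogenic than in normal medium numbered 1 at 0.5 and 4 at 0.25, those higher by 0.25 with DMSO against osteogenic medium 0, and those lower by 0.25 in osteogenic medium with DMSO against normal medium 5 in place of 3. With the second brightest probe set, which 17 genes had, the genes higher in osteogenic than in normal medium numbered 1 at 0.5 and 3 at 0.25. With DMSO against osteogenic medium, 0 were lower at 0.5, 0 higher at 0.25 and 1 lower at 0.25, and against normal medium 3 were higher at 0.25. Of 901 single-gene values under alternatives, 36 moved by more than the probe set SD and none of at least 0.5 changed sign. Hif1a differed by -0.29 between osteogenic and normal medium with the mean of its probe sets, against -0.05. No paired analysis was possible because each medium had 1 array. The dim genes are limited by their signal over background.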
